A study of Mus musculus with 17 samples.

Results

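The subject here is the part of the response to endothelial loss of endoglin that is not the same 2 and 4 weeks after deletion. For each gene the effect of genotype (knockout, KO, minus wild type, WT) was measured at 4 weeks and at 2 weeks, and the second effect was subtracted from the first. All 17 libraries of the study entered, and the difference was tested for the 4987 of 49585 annotated genes that had at least 10 counts in every library, so that zeros at 2 weeks could not create a difference.

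The libraries are SmartSeq2 RNA-seq of endothelial cells sorted from mouse bone marrow as CD45-, Ter119-, CD31+ and Sca1+ cells. KO mice carried Cdh5-CreERT2, a tamoxifen-inducible Cre driven by an endothelial promoter, and Eng alleles with loxP sites around exons 5 and 6. Every library, WT included, is labelled as tamoxifen-treated, and the series' text places induction at 8 weeks of age. The labels do not say whether WT mice carried the Cre or the floxed alleles, so Cre activity and tamoxifen-activated Cre toxicity cannot be told apart from endoglin loss. The 2-week set held 4 libraries of each genotype, each with 2 females and 2 males. The 4-week set held 5 libraries from WT, of which 2 were female and 3 male, and 4 from KO, of which 1 was female and 3 male.

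Endoglin is a co-receptor that presents BMP-type ligands to the endothelial receptor kinase Acvrl1, which signals through SMAD transcription factors, and its loss in people and mice causes fragile, malformed vessels. Marrow endothelium lines the arterioles and sinusoids that feed and shelter blood-forming cells. Inducible deletion removes the gene within days, while protein, cell behaviour and vessel shape can follow later, so effects of a deletion need not be equal at successive times.

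No gene passed the test of a difference between the times, and the genes that came closest are described here without a call. In edgeR's quasi-likelihood test with Benjamini-Hochberg adjustment over all genes tested, 0 of 4987 (0%) had an adjusted p under 0.05, and the smallest adjusted p was 0.283, for Vps4a. At an unadjusted p under 0.05 there were 195 genes (3.91%), 97 of them positive (1.95%) and 98 negative (1.97%). A positive difference means that KO, relative to WT, stood higher at 4 weeks than at 2 weeks. DESeq2 called 7 genes (AW112010, Nfat5, Pdcd10, Pdf, Skap2, Tnfrsf12a and Vps4a), and limma voom called 0. The 12 genes with the smallest p in each direction are called the leading genes here: among the positive ones Vps4a, Tnfrsf12a, Pdf, Spaar, Twf2, Wbp1, Aasdhppt, Sox17, Tmem33, Cdc42bpa, Nsfl1c and Nucb1, and among the negative ones Nfat5, Skap2, AW112010, Pdcd10, Gm14253, S100a8, Rasa3, Ddx52, Tmem126a, Psmb2, Acsl5 and Arhgap18. In all 24 the effect was larger in size at 2 weeks than at 4 weeks, as it was in 70.9% of all genes tested, and none reached a call by the main test. The 24 were picked by the difference itself, and the spread within groups was larger at 2 weeks, so nothing is read from that shared pattern.

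The libraries set how fine a difference could be seen. Total counts were 26705337 to 40882715 per library at 2 weeks and 20477400 to 33726630 at 4 weeks. Genes with at least 1 count numbered 10886 to 13583 at 2 weeks and 15996 to 21235 at 4 weeks, and the ranges did not overlap. Within groups the median SD of log2 CPM (a count per 1000000 counts of its library) was 0.665 at 2 weeks and 0.324 at 4 weeks, and it was larger at 2 weeks in 83.5% of genes. The summed CPM of 15 defining endothelial markers was 8958 to 11880 at 2 weeks and 18040 to 21900 at 4 weeks, with none of them at 0 in any library. A list of 12 neutrophil markers summed to 3237 and 4190 CPM in the 2-week KO males m3 and m2 and to 19.99 to 237.6 CPM in the other 15 libraries. The same pair had the highest sums of 10 macrophage and monocyte markers, 292.8 and 463.3 CPM, against 17.56 to 197 CPM in the others. In bulk RNA of sorted cells, fewer cells of a type and less RNA per cell cannot be told apart.

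The targeted gene was lower in KO at both times, and its effect gave no detectable difference between them. Eng (ENSMUSG00000026814, chromosome 2, 32646595 to 32682669 of GRCm38, plus strand) was at 1116, 1083, 704.7 and 1307 CPM in the 2-week WT libraries f1, f4, m2 and m3 and at 225.0, 266, 347 and 259 CPM in the KO libraries of the same names. The 4-week values were 2594, 2633, 2400.0, 2735 and 2574 CPM in WT f, f3, m1, m2 and m3 and 874, 322, 1647 and 274 CPM in KO f2, m1, m2 and m3. No KO value reached the lowest WT value of the same time, and KO m2 at 4 weeks kept the most Eng. A two-sided exact permutation test over libraries returned the smallest p that the group sizes allow, 0.0286 for the 2-week and 0.00794 for the 4-week set. The main test, adjusted over all genes, called the targeted gene at neither time. By edgeR its effects were -1.92 (SE 0.415, adjusted p = 0.0883) at 2 weeks and -1.76 (SE 0.4) at 4 weeks. A lack of a call in that test is therefore no sign that an effect is absent. The difference of the effects was 0.17 on the log2 scale (SE 0.552, 95% interval -0.999 to 1.33, edgeR adjusted p = 1), so that even a 2-fold gap in either direction lies near or inside its interval. Its sign depended on single libraries, and without KO m2 at 4 weeks it was -0.51.

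Vps4a headed the positive genes. It encodes the ATPase that takes apart ESCRT-III filaments, the polymers that pinch membranes in endosome sorting, cell abscission and membrane repair. At 2 weeks it was at 121, 164, 120.4 and 112 CPM in WT f1, f4, m2 and m3 and at 35.1, 56.8, 46.5 and 34.4 CPM in KO f1, f4, m2 and m3. No 2-week KO library thus came above 56.8 CPM and no 2-week WT library below 112 CPM. The 4-week values were 114, 123, 119.9, 91.4 and 97.5 CPM in WT f, f3, m1, m2 and m3 and 113, 131, 108 and 125 CPM in KO f2, m1, m2 and m3. There the groups overlapped, and the 4-week KO libraries lay among the WT libraries of both times.

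Vps4a (ENSMUSG00000031913) thus stood at 33.4% of WT at 2 weeks, 43.2 ± 10.6 CPM against 129.2 ± 23.3 (SD, n = 4 each), and at 109% at 4 weeks, 119 ± 10.8 CPM (SD, n = 4) against 109.0 ± 13.9 (SD, n = 5). The log2 effects were -1.55 (SE 0.234) and 0.15 (SE 0.219), and their difference was 1.70 (SE 0.318, 95% interval 1.03 to 2.37, unadjusted p = 5.67e-05 by edgeR). Within a time, the two-sided exact permutation test returned p = 0.0286 for the 2-week set, the smallest possible, and p = 0.254 for the 4-week set. The gene was singled out from earlier results of these libraries, so these p-values are no independent evidence. Over 34 alternative settings the difference stayed between 1.57 and 1.82 with adjusted p from 1.15e-05 to 1, and 4 settings called it. Without the 2-week KO males m2 and m3, which had the most neutrophil and macrophage transcripts, it was 1.73 (adjusted p = 0.0884).

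Pdf, the mitochondrial peptide deformylase that trims newly made mitochondrial proteins, followed Vps4a closely. Its 2-week values were 14.9, 20.9, 14.2 and 14.7 CPM in WT f1, f4, m2 and m3 and 5.47, 5.33, 5.62 and 5.11 CPM in KO f1, f4, m2 and m3. At 4 weeks it was at 14.4, 16.8, 17.9, 13.2 and 13.4 CPM in WT f, f3, m1, m2 and m3 and at 15.6, 17.01, 15.9 and 16.5 CPM in KO f2, m1, m2 and m3. The 2-week KO libraries were the only low ones, and they differed little among themselves.

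The difference for Pdf was 1.66 (SE 0.366, edgeR adjusted p = 0.479), from effects of -1.55 at 2 weeks and 0.10 at 4 weeks. Pdf (ENSMUSG00000078931, chromosome 8, 107044698 to 107048614, minus strand) and Vps4a (chromosome 8, 107031222 to 107045755, plus strand) run towards each other, and their annotated spans share 1058 bases, of which 57 are exonic in both. The strand setting of the counting is not given in the sources used here, and the SmartSeq2 protocol does not mark strand, so reads from the shared bases cannot be told apart. Exons of Pdf also overlap Cog8, which lies on its strand. Of the 1704 annotated exon bases of Pdf, 1363 lie in exons of Vps4a or Cog8. How the counting treated reads there is not given in the sources used here. Across all 17 libraries, with each time centred on its own mean, Pdf had the highest correlation with Vps4a of any gene tested, at a Pearson r of 0.964. Next came Spaar at 0.897, Tnfrsf12a at 0.852, Tmem33 at 0.833 and Idh2, a mitochondrial isocitrate dehydrogenase, at 0.83. These correlations are descriptions over libraries that share depth and genotype, and all 5 genes had lower values in KO at 2 weeks.

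Because Vps4a and Pdf moved together, the sequences around their starts are shown, to let a reader see that each has a start region of its own. The GENCODE starts of the genes lie 17392 bases apart. The sequences are the 300 bases from 250 before to 50 after the RefSeq start (GRCm38.p6), 5′ to 3′ on the strand of the gene. Capitals mark CAGACA, letters bound by SMAD proteins, or its reverse complement TGTCTG.
Vps4a, chr8:107031019-107031318, plus strand: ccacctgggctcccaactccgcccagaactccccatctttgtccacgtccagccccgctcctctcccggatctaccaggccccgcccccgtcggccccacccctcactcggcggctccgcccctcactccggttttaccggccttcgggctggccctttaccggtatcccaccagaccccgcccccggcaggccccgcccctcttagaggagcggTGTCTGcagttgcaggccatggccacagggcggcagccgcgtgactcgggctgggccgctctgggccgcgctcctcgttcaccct
Pdf, chr8:107048565-107048864, minus strand: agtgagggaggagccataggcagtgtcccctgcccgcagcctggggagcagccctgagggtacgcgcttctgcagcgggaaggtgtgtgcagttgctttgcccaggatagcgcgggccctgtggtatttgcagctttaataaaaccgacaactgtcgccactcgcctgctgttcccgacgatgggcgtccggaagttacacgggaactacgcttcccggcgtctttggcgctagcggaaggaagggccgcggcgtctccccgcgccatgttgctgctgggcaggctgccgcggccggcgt
The Vps4a window held 1 such match and the Pdf window none. CAGACA, searched on both strands, occurred in 5 of the 20 leading genes with a window (25.0%), in 15.3% of 3318 tested genes with one and in 21% of all 32851 windows. The palindrome GGCGCC, another SMAD-bound run of letters, occurred in 4 of the 20 (20.0%), in 21.9% and in 11.9%. A match is a run of letters and not a measured binding site.

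Tnfrsf12a had the largest positive difference of the leading genes. It encodes Fn14, the receptor for the cytokine TWEAK, which is induced in injured and growing tissues. Its 2-week values were 22.9, 18.9, 30.3 and 12.7 CPM in WT f1, f4, m2 and m3 and 1.80, 2.83, 3.67 and 3.79 CPM in KO f1, f4, m2 and m3. The 4-week values were 62.6, 59.1, 54.0, 31.7 and 90.5 CPM in WT f, f3, m1, m2 and m3 and 74.9, 49.7, 65.8 and 35.0 CPM in KO f2, m1, m2 and m3. The 2-week groups were far apart and the 4-week groups overlapped fully, KO being at 14.3% of WT at 2 weeks and at 94.5% at 4 weeks. The difference was 2.66 (SE 0.578, edgeR adjusted p = 0.479).

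Spaar, which encodes a small lysosomal polypeptide that tempers amino acid signalling to mTORC1, was at 65.3, 53.4, 83.3 and 70.4 CPM in 2-week WT f1, f4, m2 and m3 and at 12.4, 32.5, 24.5 and 10.03 CPM in KO f1, f4, m2 and m3. At 4 weeks WT f, f3, m1, m2 and m3 had 54.2, 47.3, 74.4, 36.8 and 44.2 CPM and KO f2, m1, m2 and m3 had 53.2, 53.5, 73.2 and 52.5 CPM. Its groups were again apart at 2 weeks and mixed at 4 weeks, with a difference of 1.91 (SE 0.529). Twf2, an actin-monomer-binding twinfilin, was at 81.6, 142, 99.6 and 29.8 CPM in 2-week WT f1, f4, m2 and m3 and at 42.9, 28.9, 14.2 and 4.84 CPM in KO f1, f4, m2 and m3. WT m3 lay below KO f1, so the 2-week groups of Twf2 overlapped. Wbp1, a membrane protein with motifs for WW domains, had 31.7, 125, 150.5 and 52.1 CPM in 2-week WT f1, f4, m2 and m3 and 11.6, 26.6, 35.5 and 29.2 CPM in the matching KO libraries. It overlapped too, since WT f1 lay below KO m2. At 4 weeks Twf2 ranged from 44.1 to 90.4 CPM in WT and 67.8 to 101 CPM in KO, and Wbp1 from 20.2 to 35.9 and 28.5 to 49.0. The differences were 2.22 (SE 0.643) for Twf2 and 2.07 (SE 0.637) for Wbp1.

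**Figure D1:**
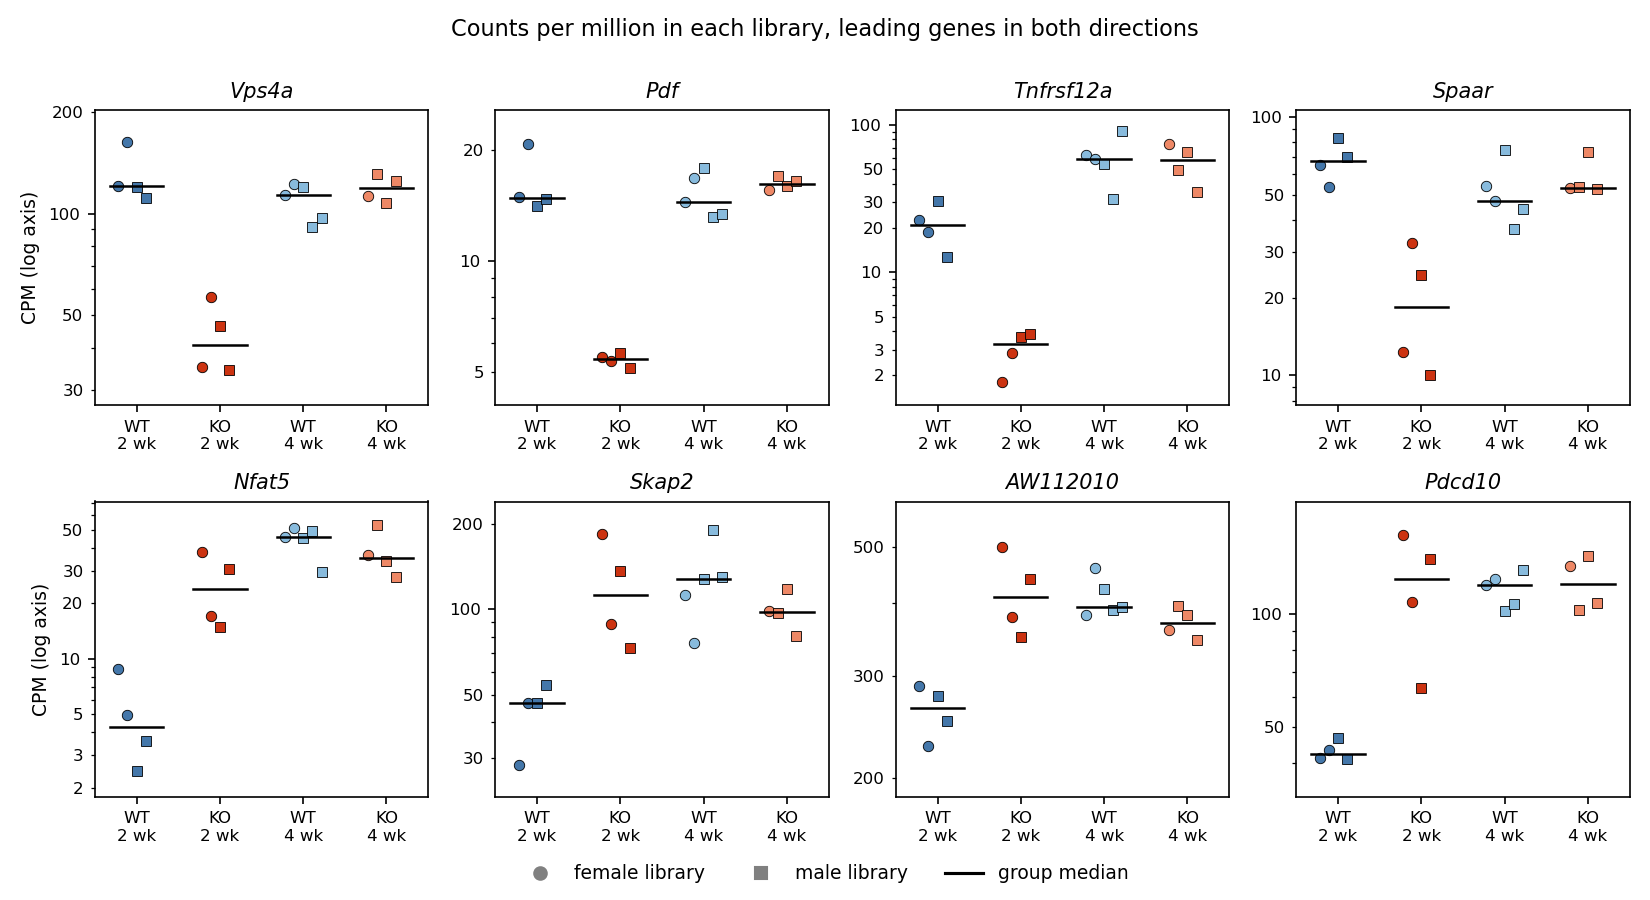
CPM on a log axis (y) in each of the 17 libraries, by genotype and weeks after tamoxifen (x), for 4 leading genes with a positive difference (top) and 4 with a negative one (bottom). Circles are females, squares are males and bars are group medians. For Vps4a the 2-week KO libraries sit at 34.4 to 56.8 CPM, below all other libraries, and for Pdcd10 the 2-week WT libraries sit at 40.9 to 46.6 CPM, below all others.

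Nfat5 headed the negative genes. It is the transcription factor of the response to hypertonic stress and also acts in immune and vascular cells. Its 2-week values were 8.82, 4.94, 2.46 and 3.61 CPM in WT f1, f4, m2 and m3 and 37.8, 17.1, 14.9 and 30.5 CPM in KO f1, f4, m2 and m3. At 4 weeks it was at 45.7, 50.9, 45.3, 49.6 and 29.4 CPM in WT f, f3, m1, m2 and m3 and at 36.5, 53.2, 34.1 and 28.0 CPM in KO f2, m1, m2 and m3. Here the WT libraries of 2 weeks were the low ones, at or below 8.82 CPM, and the KO libraries of 2 weeks lay nearer the 4-week values. The KO level was 5.07 times that of WT at 2 weeks and 0.858 times at 4 weeks, and the difference was -2.58 (SE 0.591, edgeR adjusted p = 0.479).

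Pdcd10 encodes a protein of the cerebral cavernous malformation complex, whose loss in endothelium, like that of endoglin, causes vascular lesions. At 2 weeks it was at 41.1, 43.3, 46.6 and 40.9 CPM in WT f1, f4, m2 and m3 and at 162, 107, 63.5 and 139.6 CPM in KO f1, f4, m2 and m3. The 4-week values were 119.0, 124, 101, 106 and 131 CPM in WT f, f3, m1, m2 and m3 and 134, 102, 143 and 107 CPM in KO f2, m1, m2 and m3. The 2-week WT libraries were low and close together, while the 2-week KO libraries lay on both sides of the 4-week range, m2 below it and f1 above it. The difference was -1.41 (SE 0.363, edgeR adjusted p = 0.804), from 1.47 at 2 weeks and 0.07 at 4 weeks.

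Skap2, an adaptor of Src-family kinases in adhesion and actin signalling, was at 28.2, 46.7, 46.9 and 53.9 CPM in 2-week WT f1, f4, m2 and m3 and at 185, 89.2, 136 and 73.0 CPM in KO f1, f4, m2 and m3. At 4 weeks it ranged from 76.1 to 190.0 CPM in WT and from 80.5 to 118 CPM in KO. It did not overlap at 2 weeks and overlapped at 4 weeks, with a difference of -1.87 (SE 0.433, edgeR adjusted p = 0.479). AW112010, annotated as a long noncoding RNA, had 288, 227, 277 and 251 CPM in 2-week WT f1, f4, m2 and m3 and 500.3, 378, 350.4 and 440.5 CPM in KO f1, f4, m2 and m3. Its 4-week values were 382 to 460.4 CPM in WT and 346 to 396 CPM in KO. The difference was among the smaller ones, at -0.85, but so was its error, at an SE of 0.206 (adjusted p = 0.587). Gm14253 is a processed pseudogene whose reads may belong to its parent gene, and it lay near the count limit, at 0.318 to 1.84 CPM over all libraries and 12 counts in the lowest.

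S100a8 gave the largest negative value, and it is itself a neutrophil gene, a subunit of the calcium-binding protein calprotectin. At 2 weeks it was at 19.1, 4.5, 10.2 and 35.5 CPM in WT f1, f4, m2 and m3 and at 56.9, 87.3, 1442 and 875 CPM in KO f1, f4, m2 and m3. At 4 weeks it ran from 4.45 to 34.1 CPM in WT and from 4.97 to 32.9 CPM in KO. The difference was -4.11 (SE 1.08, edgeR adjusted p = 0.804), and without the 2-week KO males m2 and m3 it was -2.22 (adjusted p = 0.585). It was the only 1 of 12 listed neutrophil markers with enough counts to be tested. Erythroid transcripts differed between libraries as well: 11 markers summed at 2 weeks to 61.5 to 253 CPM (WT) and 278 to 1258 CPM (KO), and at 4 weeks to 172 to 1305 and 621 to 2922, where the groups overlapped. The 4 haemoglobin genes that were tested were higher in KO at both times, with median effects of 2.34 and 1.54 and no call at either time, and had differences of -0.72 to -0.85, none with an unadjusted p under 0.05. The sort removes CD45+ and Ter119+ cells, and the part of such transcripts in the differences of other genes was not tested.

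The 12 remaining leading genes had their larger effect at 2 weeks as well, and 8 of them had no overlap between the 2-week groups, against 3.71% of all genes tested. They were picked by a test on the same counts, so nothing is read from that count. On the positive side Sox17, a transcription factor of arterial endothelium, was at 251 to 423 CPM in 2-week WT and 176 to 301 in 2-week KO and at 434 to 571 and 500.1 to 566 CPM at 4 weeks, with a difference of 0.82 (SE 0.26). KO f1 alone, at 301 CPM, entered the WT range at 2 weeks. Nsfl1c, a cofactor of the p97 segregase in Golgi and ubiquitin pathways, was at 102 to 160 CPM in 2-week WT and 33.2 to 90.6 in 2-week KO without overlap, and its difference was 1.18 (SE 0.38). Cdc42bpa, a kinase that acts below Cdc42 on actomyosin, was at 24.2 to 45.0 CPM in 2-week WT and 4.59 to 15.3 in 2-week KO, also without overlap, with a difference of 1.71 (SE 0.548). Tmem33 (an endoplasmic reticulum membrane protein), Nucb1 (a calcium-binding protein of the Golgi) and Aasdhppt (the enzyme that loads carrier proteins with phosphopantetheine) had differences of 1.28, 1.37 and 2.01.

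On the negative side Rasa3, a GTPase-activating protein for Ras and Rap, was at 3.55 to 15.7 CPM in 2-week WT and 26.3 to 66.4 in 2-week KO, and at 7.97 to 50.4 and 17.8 to 32.9 CPM at 4 weeks. Its difference was -2.82 (SE 0.786). Arhgap18, which switches off RhoA, had -2.18 (SE 0.682), Ddx52, an RNA helicase, -2.63 (SE 0.762), and Tmem126a, a mitochondrial inner membrane protein of complex I assembly, -1.93 (SE 0.593). Acsl5, an enzyme that activates long-chain fatty acids, had -0.90 (SE 0.278), with 76.8 to 116 CPM in 2-week WT and 151 to 225 in 2-week KO. Psmb2, a catalytic-core subunit of the proteasome, had -1.09 (SE 0.338). All of these had an edgeR adjusted p of 1.

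By textbook role, a sorting made after the genes were known, neither direction kept to 1 kind of gene. Regulators of actin and small GTPases were on both sides, with Twf2 and Cdc42bpa positive and Rasa3, Arhgap18 and Skap2 negative. So were transcription factors, with Sox17 positive and Nfat5 negative, and mitochondrial proteins, with Pdf positive and Tmem126a negative.

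**Figure D2:**
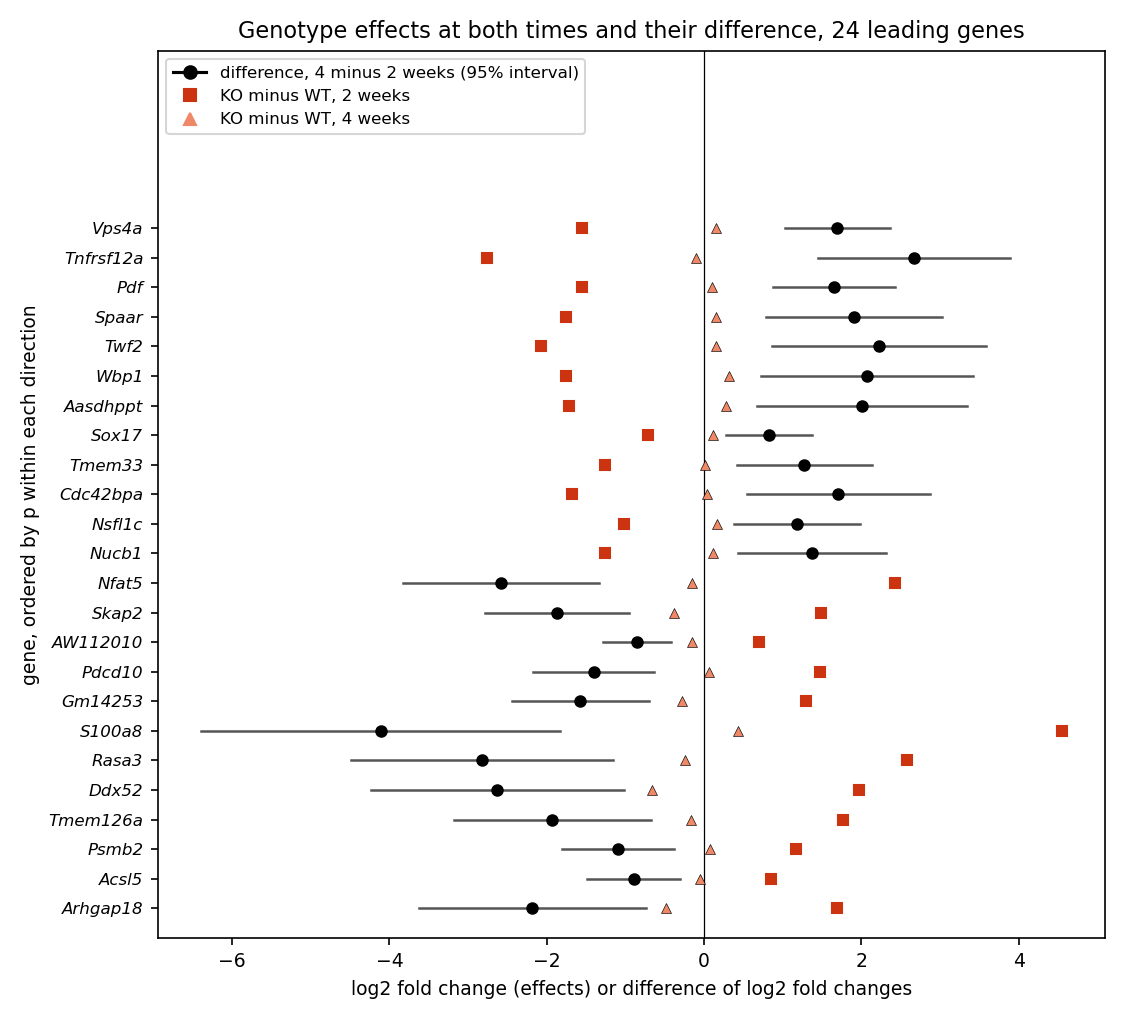
For each of the 24 leading genes (y), the log2 effect of KO against WT at 2 weeks (red squares) and 4 weeks (orange triangles), and the difference of the effects with its 95% interval (black). The squares lie between -2.76 and 4.55, while the triangles stay between -0.66 and 0.43.

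The 195 genes with an unadjusted p under 0.05 are described next. The effect was larger at 2 weeks than at 4 weeks in 188 of them (96.4%), against 3535 of all 4987 genes (70.9%). The 2 effects had opposite signs in 144 (73.8%), against 42% of all genes. The 4-week effect was smaller than 0.5 on the log2 scale in 171 (87.7%), against 93.2% of all genes, and the median size of the effect was 1.21 at 2 weeks and 0.169 at 4 weeks. These genes were chosen for a large difference, so the counts describe them and test nothing. The spread within groups was also larger at 2 weeks (median SD of log2 CPM 0.665 against 0.324). Genes picked by the difference are then mostly those with large 2-week effects. In these picked genes the larger share of a difference lay in the 2-week effect, and opposite signs mostly paired a large 2-week effect with a small 4-week one.

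Overlap between the groups was counted gene by gene. Among all genes tested, 185 (3.71%) had no overlap between KO and WT at 2 weeks and 56 (1.12%) had none at 4 weeks. No gene (0%) was free of overlap at both times in opposite directions. Of the 24 leading genes, 18 had no overlap at 2 weeks, 7 with KO lower and 11 with KO higher, and 0 had none at 4 weeks. The 2-week share comes from 4 against 4 libraries and the 4-week share from 5 against 4, so the shares are not on equal terms, and the leading genes were picked by a test on the same counts.

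Which of the 2-week groups stood away from the 4-week libraries depended on the direction. For 10 of the 12 positive genes the 2-week KO group lay farther than the 2-week WT group from the mean of the 4-week libraries in log2 CPM, the exceptions being Wbp1 and Aasdhppt, whose 2-week WT libraries were the far ones. For 9 of the 12 negative genes the 2-week WT group was the farther one, the exceptions being S100a8, Ddx52 and Psmb2. Over all 4987 genes the 2-week KO group was the farther one in 2794 and the 2-week WT group in 2193. In 19 of the 24 (79.2%) the farther group was the lower of the pair, which by itself places it below the 4-week level. The same held for 137 of the 195 (70.3%) and 2797 of all 4987 genes (56.1%). The 24 and the 195 were picked by a test on the same counts, so nothing is read from these shares. Levels of the 2 times come from libraries that differ in the number of genes detected, so time and library quality cannot be told apart here.

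**Figure D3:**
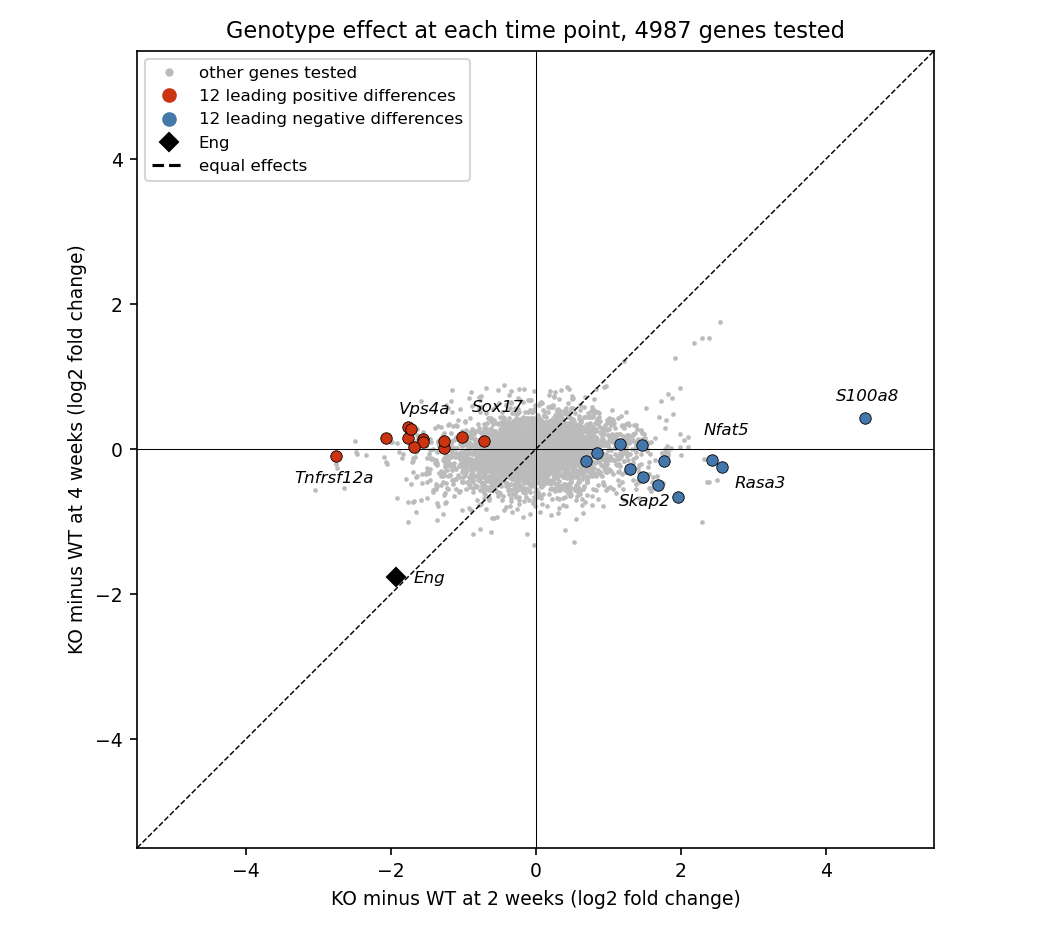
Log2 effect of KO against WT at 2 weeks (x) and 4 weeks (y) for the 4987 genes tested (grey), with the leading genes in red (positive difference) and blue (negative difference), Eng as a black diamond and a dashed line of equal effects. Leading genes lie along the horizontal axis, with 4-week effects between -0.66 and 0.43, while Eng lies near the line at -1.92 and -1.76.

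The effect at each time was read from the same fit, in which all libraries share 1 estimate of the spread. At 2 weeks 7 genes (0.14%) passed an adjusted p of 0.05 by edgeR and 549 had an unadjusted p under 0.05. Nfat5 (2.43), Pdcd10 (1.47) and S100a8 (4.55) rose in KO, and Vps4a (-1.55), Pdf (-1.55), Tnfrsf12a (-2.76) and Fkbp4 (-1.30) fell, with adjusted p from 0.0234 to 0.0439. At 4 weeks 0 genes (0%) passed, 47 had an unadjusted p under 0.05 and the smallest adjusted p was 1, while DESeq2 called 0 and voom 3. An effect called at one time and not at the other is not thereby a difference between the times, and for each of these 7 genes the test of the difference itself missed the threshold, as given above and, for Fkbp4, a co-chaperone of HSP90, at 0.94 (SE 0.324, adjusted p = 1).

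Those 2-week calls changed with the fit, and not every effect kept its size. With each time fitted alone the median biological coefficient of variation was 52.6% at 2 weeks and 25.7% at 4 weeks, the median SE of an effect was 0.49 and 0.23, and 0 genes passed at either time (248 and 144 unadjusted). In those separate fits the 2-week effects were -1.59 (SE 0.343) for Vps4a, -2.85 (SE 0.504) for Tnfrsf12a and 2.43 (SE 0.589) for Nfat5. voom likewise called 0 genes at 2 weeks, and DESeq2 called 156. With the 4-week males paired by replicate number, or all libraries blocked by number, 0 were called at 2 weeks. Without the 4-week WT library f 0 were called at 2 weeks, and without the 2-week WT library m2 16 were. Without the 2-week KO males m2 and m3 there were 74, with 5 of the 7 among them. S100a8 was not among those 5, and its difference between the times went from -4.11 to -2.22 there. Vps4a was called at 2 weeks in 26 of 33 alternatives, Tnfrsf12a in 22, Fkbp4 in 14, Pdcd10 in 13, Pdf in 11, Nfat5 in 10 and S100a8 in 9, with adjusted p of up to 0.54 for Vps4a and 0.687 for Pdcd10.

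The spread set the size of a difference that could be seen. The median SE of the difference was 0.523 on the log2 scale, and the 95% interval of the median gene reached 1.1 to either side. The genes were also split by abundance into 4 sets of near equal size. From the least to the most abundant set, 43.9%, 6.5%, 35.2% and 80.5% of genes had an interval that reached less than 1 to either side. The share thus did not rise steadily with abundance. Differences smaller than 2-fold were therefore not detectable for most genes at this depth and spread. Across genes, the effects at 2 and 4 weeks had a Pearson r of 0.165 and a Spearman rho of 0.164, and 58% of genes had the same sign. Genes do not count as replicates in such values.

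Members of 34 gene lists were read against the background of all genes tested, in which 47.9% had a positive difference and the median was -0.0241. Of these lists 9 held a member with an unadjusted p under 0.05, and 0 members passed an adjusted p of 0.05 by edgeR. Counting each gene once, 13 of 473 tested members (2.75%) had an unadjusted p under 0.05, against 3.91% of all genes. In each pathway list the member with the smallest p is named, and further members were picked after their values were seen. The ESCRT list, machinery on which Vps4a acts, had 20 of 28 members tested, 10 of them positive and 10 negative, with a median of -0.0857. Besides Vps4a, 2 members had an unadjusted p under 0.05, in opposite directions. Vps37b, a subunit of ESCRT-I, was at 7.76, 20.9, 20.7 and 8.01 CPM in 2-week WT f1, f4, m2 and m3 and at 28.2, 51.1, 63.6 and 44.0 CPM in KO, without overlap, and had a difference of -1.80 (SE 0.667). Mvb12a, another subunit of ESCRT-I, had a difference of 0.99 (SE 0.454), and its 2-week groups overlapped, with WT at 73.3 to 164 CPM and KO at 27.0 to 101 CPM.

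The paralogue Vps4b, whose product forms the same ATPase ring, had a smaller 2-week effect than Vps4a, at -0.32 (SE 0.4), a gap that was not tested. It was at 28.4, 122, 139 and 47.6 CPM in 2-week WT f1, f4, m2 and m3, at 59.7, 36.9, 85.1 and 85.2 CPM in KO, and its 2-week groups overlapped. Its difference was 0.08 (SE 0.55), an interval wide enough to hold a difference of more than 2-fold. The 8 tested Chmp subunits of ESCRT-III went both ways, from Chmp7 at -0.93 (SE 0.751) and Chmp3 at -0.41 (SE 0.295) to Chmp6 at 0.52 (SE 0.374) and Chmp1b at 0.69 (SE 0.969), none with an unadjusted p under 0.05.

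**Figure D4:**
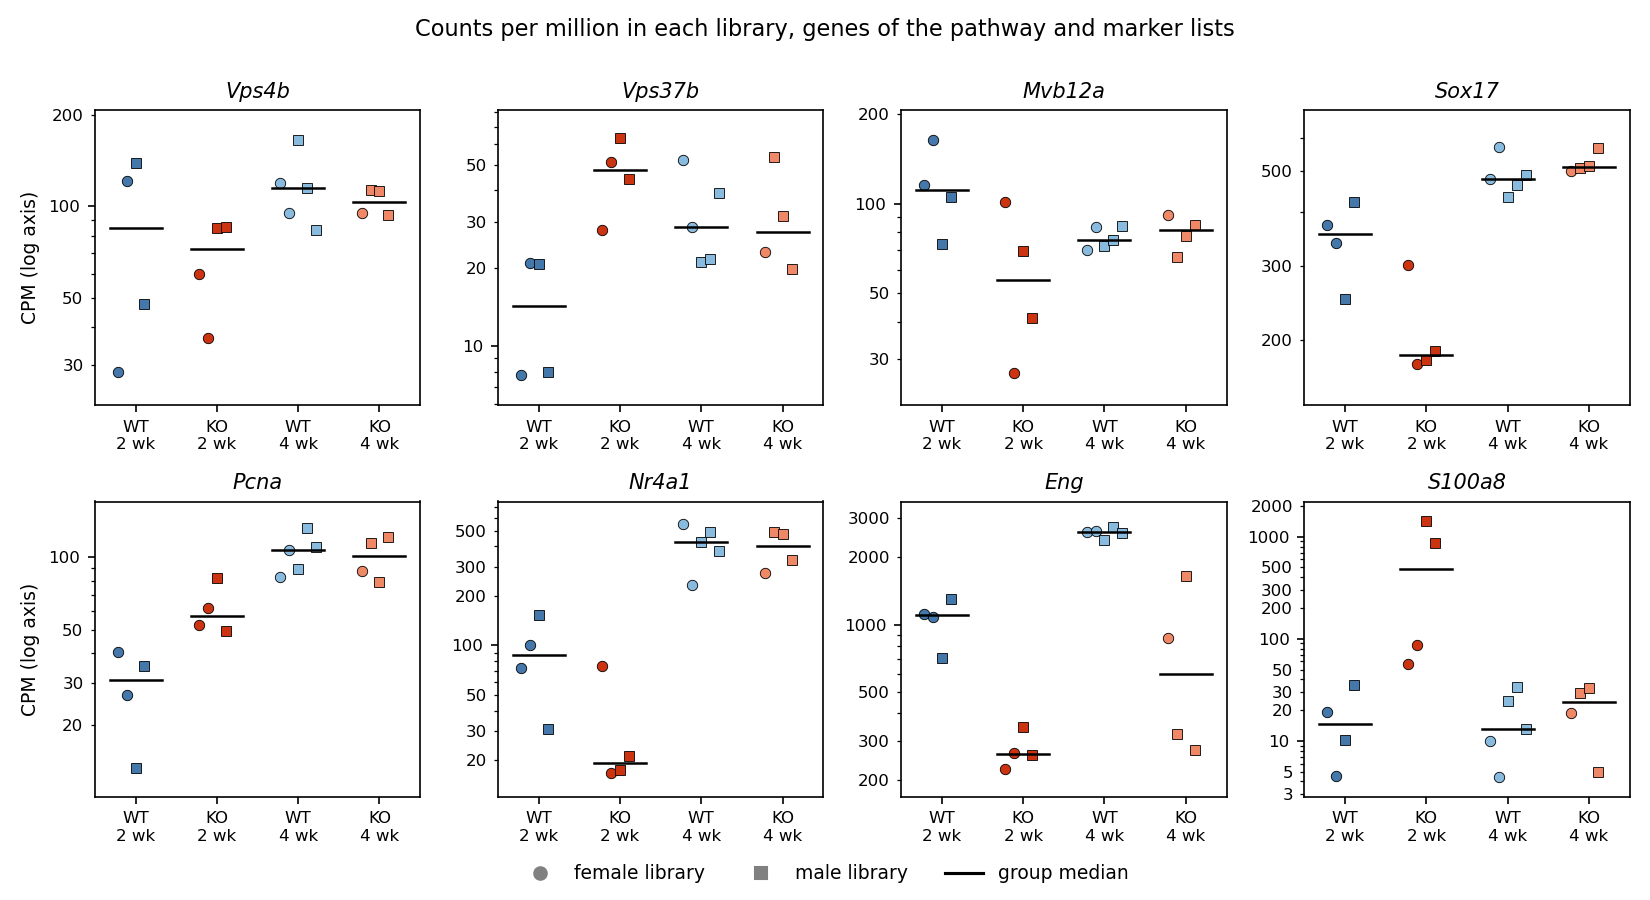
CPM on a log axis (y) in each library, by genotype and weeks after tamoxifen (x), for Vps4b, for members of the ESCRT (Vps37b, Mvb12a), transcription factor (Sox17), cell cycle (Pcna) and immediate early (Nr4a1) lists, and for Eng and S100a8. Circles are females, squares are males and bars are group medians. Vps37b is at 28.2 to 63.6 CPM in 2-week KO and 7.76 to 20.9 in 2-week WT, and Eng is lower in KO at both times.

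Lists of endothelial signalling held no member with an unadjusted p under 0.05 for the difference. Among TGF-beta family receptors and SMADs 8 were tested, with a median of -0.0881. The smallest p was that of Bmpr2, a type II BMP receptor, at -1.10 (SE 0.869), and Acvrl1, the kinase partner of endoglin, had -0.09 (SE 0.487). The BMP target Id3 had 0.19 (SE 0.154), with 938 to 1108 CPM in 2-week WT and 671 to 1038 in 2-week KO and 2068 to 2479 and 1982 to 2277 at 4 weeks. Among 15 angiogenic ligands and receptors the median was -0.158 and the median effects were -0.254 at 2 weeks and -0.342 at 4 weeks, with Flt1 at -0.66 and -0.42, Tie1 at -0.77 and -0.57 and Aplnr at -0.69 and -0.82. Of these, Flt1 binds VEGF, Tie1 is an orphan partner of the angiopoietin receptor and Aplnr is the apelin receptor. The SEs of these 3 differences were 0.34 to 0.373. The smallest p of the list was that of Robo4, an endothelial guidance receptor, with effects of -0.90 and -0.18 and a difference of 0.73 (SE 0.439). Members also went the other way at 2 weeks, with effects of 0.33 and -0.52 for Calcrl, the receptor of adrenomedullin, 0.43 and -0.03 for the Notch ligand Dll4, and 0.53 and -0.07 for the VEGF co-receptor Nrp2. In all, 4 of 15 were higher in KO at 2 weeks and 2 at 4 weeks.

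Transcription factors and shear-stress genes numbered 16, with Sox17 the 1 member with an unadjusted p under 0.05. Klf2 and Klf4, which flow induces in endothelium, had differences of 0.19 (SE 0.391) and 0.63 (SE 0.486). Among 11 arterial markers the median effect was -0.467 at 2 weeks and 0.00 at 4 weeks. Of their differences 7 were positive, with a median of 0.156, and Sox17 was again the 1 with an unadjusted p under 0.05. Among 14 junction and barrier genes the median effects were -0.357 and -0.242, and Esam, a tight junction adhesion molecule, had 0.38 (SE 0.211).

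Genes of stress, growth and protein turnover included pairs that went opposite ways. In the proteasome list 19 of 27 differences were positive (70.4%, median 0.116), and 2 members had an unadjusted p under 0.05, Psmb2 at -1.09 and Psmc6, an ATPase of the regulatory cap, at 1.25 (SE 0.408). Psmc6 was at 67.6 to 159 CPM in 2-week WT and 31.2 to 69.2 in 2-week KO, and Psmb2 at 66.1 to 162 and 219.9 to 375. Among 14 heat shock proteins and co-chaperones Fkbp4 had 0.94 and Hspd1, the mitochondrial chaperonin, -1.30 (SE 0.573). Pcna, the replication clamp, had -1.16 (SE 0.462), was at 13.3 to 40.3 CPM in 2-week WT and 49.2 to 82.5 in 2-week KO without overlap, while the other 6 tested members of the cell cycle list had an unadjusted p above 0.05.

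Immediate early genes, which cell isolation also induces, had 8 of 12 positive differences and a median of 0.226. Junb (0.79, SE 0.371) and Nr4a1 (1.40, SE 0.66) had an unadjusted p under 0.05. Nr4a1 was at 72.5, 101, 153 and 31.0 CPM in 2-week WT f1, f4, m2 and m3 and at 75.2, 16.8, 17.4 and 21.3 CPM in KO, where KO f1 alone lay in the WT range. Ctsd, a lysosomal protease, had 276 to 344 CPM in 4-week WT and 367 to 449 in 4-week KO, effects of -0.38 and 0.35 and a difference of 0.73 (SE 0.278). In 146 of the 473 list members (30.9%) the effect was larger in size at 4 weeks than at 2 weeks, near the 29.1% of all genes. Among them were Thbd, the anticoagulant receptor thrombomodulin, at -0.26 and -0.82, and Bnip3, a mitophagy receptor induced by hypoxia, at 0.25 and 0.73. Neither difference had an unadjusted p under 0.05.

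The members with the smallest p in the other pathway lists had an unadjusted p above 0.05 as well. They were Rdx, a radixin that ties actin to the membrane, at 1.05 (SE 0.504), Hnrnpu, a nuclear RNA-binding protein, at -0.68 (SE 0.327), and Snx3, a sorting nexin of endosomes, at 0.44 (SE 0.239). The vesicle transport and endocytosis list, to which Snx3 belongs, had 9 positive and 14 negative differences. Pfkl, a phosphofructokinase of glycolysis, had 0.75 (SE 0.405), Atp5a1, a subunit of ATP synthase, 0.63 (SE 0.323), and mt-Cytb, a mitochondrially encoded subunit of complex III, 0.18 (SE 0.26). Psmb8, a subunit of the immunoproteasome, had -0.48 (SE 0.26), and Ifit2, an interferon-induced gene, -1.15 (SE 0.701). Col15a1, a collagen of basement membranes, had 1.195 (SE 0.86), and Nfkbia, an inhibitor of NF-kappa-B, 0.27 (SE 0.292). The Notch list was headed by Notch1 at -0.68 (SE 0.779) and the angiocrine list by Dll4 at -0.46 (SE 0.573).

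For some genes the fitted effects at the 2 times were near each other, although none of those named here was called at either time and the intervals of their differences are wide. Bax, a pro-apoptotic target of p53, was at 226% of WT at 2 weeks and 230% at 4 weeks, with effects of 1.22 and 1.21 and a difference of -0.01 (SE 0.42, 95% interval -0.90 to 0.88). In 2-week WT f1, f4, m2 and m3 it was at 74.7, 41.2, 54.6 and 34.4 CPM and in KO at 121.3, 121.0, 90.7 and 131 CPM, and at 4 weeks at 47.0 to 66.9 CPM in WT and 72.9 to 179 CPM in KO. Both times were free of overlap. Over the 8 tested p53 targets the median effects were 0.59 and 0.756, and 6 were higher in KO at 2 weeks and 8 at 4 weeks, with Rps27l at 0.95 and 0.86 and Ephx1, an epoxide hydrolase, at 0.83 and 0.84. The exceptions at 2 weeks were Btg2, an antiproliferative gene, at -0.58 and 0.06, and the death receptor Fas, at -0.42 and 0.12, and Btg2 had the smallest p of the list with a difference of 0.64 (SE 0.356). Cdkn1a, which encodes the cell cycle inhibitor p21, was at 0.35 and 0.82. Cytosolic ribosomal protein genes were higher in KO for 84 of 85 at each time, against 52.7% and 51.2% of all genes, by medians of 0.291 and 0.191, and 68 of their 85 differences were negative with a median of -0.0961. Haemoglobin transcripts were higher in KO at both times too, as given above, and their part in these values was not tested. The 37 nuclear genes of the respiratory chain had a median difference of -0.0085, and the 17 interferon response genes one of -0.16.

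**Figure D5:**
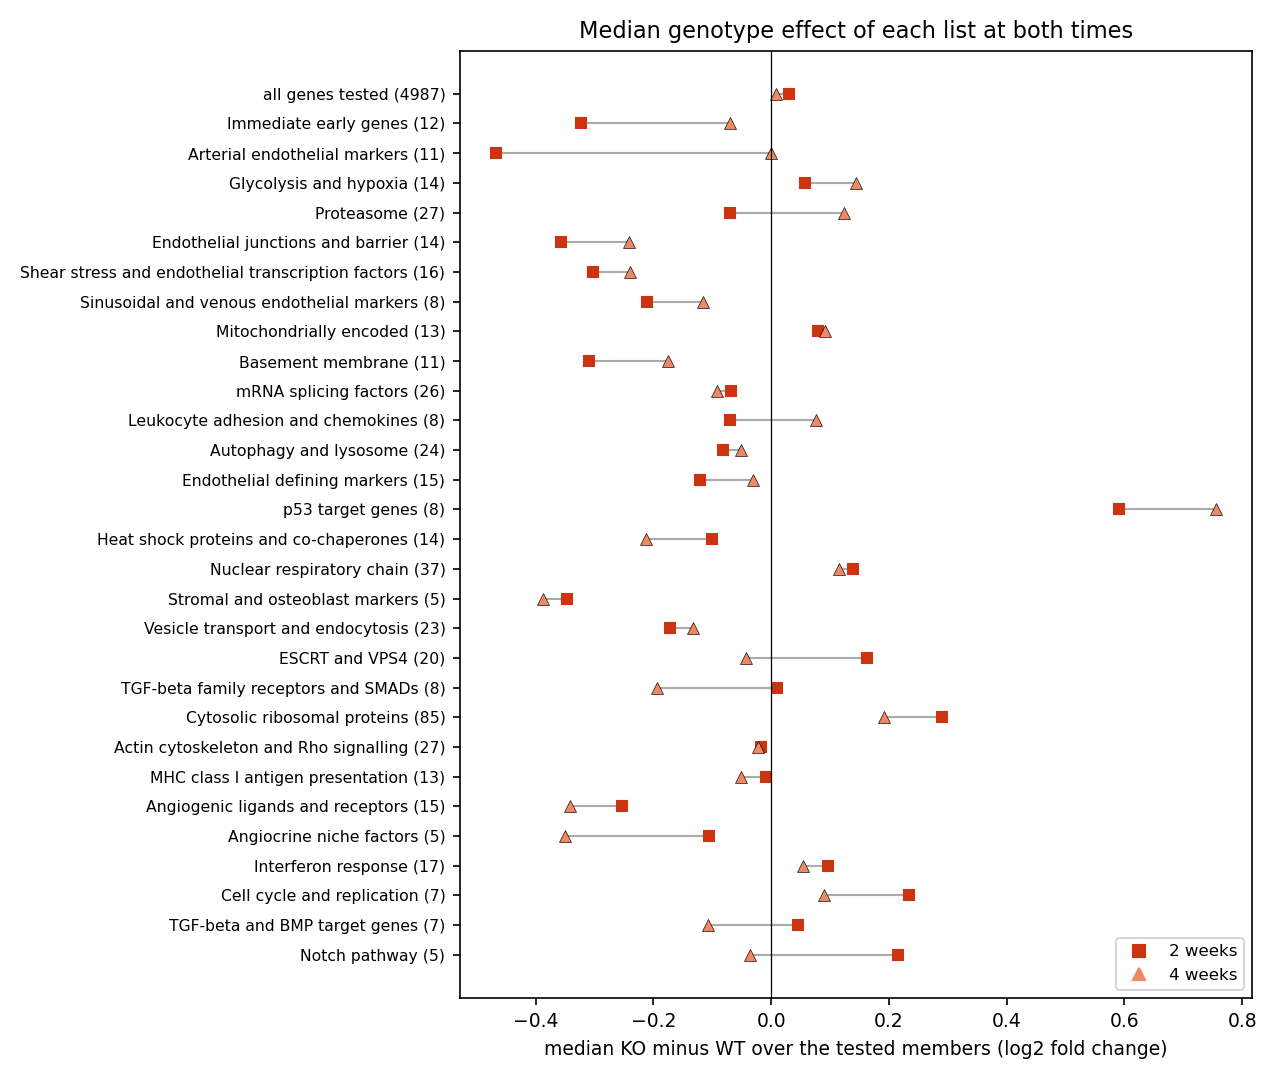
Median log2 effect of KO against WT over the tested members of each list with at least 5 of them (number in parentheses) at 2 weeks (red squares) and 4 weeks (orange triangles), ordered by the median difference, with all genes tested on top. The p53 targets lie farthest right at both times (0.59 and 0.756), and the arterial markers lie at -0.467 and 0.00.

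The limit of 10 counts in every library removed many genes on 1 side. At least 10 counts in every library of a time were found for 11149 genes at 4 weeks and 5125 at 2 weeks, and 5462 genes that passed at 4 weeks were at 0 in at least 1 library at 2 weeks. Just inside the limit, with a lowest count of 10 to 12, were 146 genes, and just outside it, with 7 to 9, were 208. With edgeR's filterByExpr in its place, 12 of 15703 genes were called, of which 1, Vps4a, belonged to the 4987.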

How the data were processed

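The authors deposited raw counts per gene, 1 table per library, as whole numbers with no normalization. Per the submitters' processing notes, cutadapt, STAR and HTSeq 0.6.1p1 were used with GRCm38/mm10; their roles, the annotation and the strand setting are not given in the sources used here. Positions and symbols are from GENCODE M21 on GRCm38, 1-based.

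Genes with at least 10 counts in all 17 libraries were kept, and every deposited count of a library entered its total (20477400 to 40882715). edgeR 4.0.16 in R 4.3.3 fitted a mean for each of 4 groups and a sex term to TMM-scaled counts, with quasi-likelihood F tests, robust estimation and Benjamini-Hochberg adjustment over 4987 genes at 0.05. Effects are log2 fold changes, and SEs come from the F statistic. CPM uses the library total. Exact permutation tests used log2 CPM with a prior count of 2, and only for Vps4a and Eng. SmartSeq2 reads carry no molecular identifiers, so errors from counts alone would be too small; the p-values measure the spread between libraries, and the labels do not say whether each library came from a separate mouse.

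Named were Vps4a, Eng, the 12 genes with the smallest p in each direction, and the member with the smallest p in each pathway list; Vps37b, Mvb12a, Vps4b, Psmc6, Hspd1, Nr4a1, Bax and the further list members given with values were added after their values were seen. The members and lists were chosen with earlier results of these data known. The replicate numbers were checked for pairing by the correlation of deviations from group means: at 2 weeks it was -0.0295 to 0.0493 for same-numbered libraries, and for the 4-week males 0.327, 0.159 and 0.469, little above the next highest of 0.301, 0.156 and 0.433. The reported fit has no block, and a block for those males was an alternative. Alternatives were other filters, scalings, tests (DESeq2 1.42.0, limma 3.58.1), no sex term, blocks and left-out libraries.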

Additional observations from a re-analysis of the deposited data

Results flagged for a closer look

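In groups of 4 or 5 libraries, 1 library lay apart from the others by Dixon's test in 7 of 184 groups of the 46 genes named by rule; chance flags about 1 in 20. Pdf was at 20.9 CPM in the 2-week WT library f4 against 14.1 to 14.9 CPM in the other WT libraries, and the 2-week KO libraries were lower than all of them. Spaar was at 73.2 CPM in 4-week KO m2, against 52.5 to 53.5 CPM in the others. Sox17 was at 300.8 CPM in 2-week KO f1, against 176 to 189 CPM, and without that library its difference was 0.97. Nfat5 was at 29.4 CPM in 4-week WT m3, against 45.3 to 50.9 CPM. Ddx52 was at 140.5 CPM in 2-week KO f1, against 52.8 to 62.3 CPM. Acsl5 was at 76.8 CPM in 2-week WT f1, against 112 to 116 CPM. Nfkbia was at 365 CPM in 2-week WT m3, against 668 to 723 CPM.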

How the results depend on the processing

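All 24 leading genes kept the direction of their difference in each of the 34 alternatives that gave a value, 17 of which left out 1 library (Gm14253 had a value in 32), and 7 of them were called in at least 1. The alternatives refit the same counts by which these genes were picked, so nothing is read from the kept direction. Genes with an unadjusted edgeR p of 0.223 (Bmpr2), 0.43 (Dll4) and 0.376 (Nfkbia) kept theirs in all 34 too, while Eng, Notch1 and mt-Cytb did not. The count of differences with an adjusted p under 0.05, 0 in the report, was 12 with filterByExpr, 10 with a mean count of at least 50, 6 with no low-count filter, 7 with the DESeq2 Wald test, 2 with each time fitted alone and a normal p, 10 with both KO males of the 2-week set left out, and 1 with males only; leaving out 1 library gave 0 to 1 (Nfyc, without the 2-week WT library f4). The unadjusted count, 195, was 1540 with filterByExpr, 1129 with a mean count of at least 50, 1920 with no low-count filter and 419 without those males, and 153 to 274 with 1 library left out. Looser filters test more genes, and for the other changes the cause was not tested.

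Genes called at 2 weeks, 7 in the report, were 31 with filterByExpr, 31 with a mean count of at least 50, 11 with no low-count filter, 156 with DESeq2, 0 with either voom fit, 0 with each time fitted alone, 0 with the replicate block, 0 with the replicate block for the 4-week males, 74 with both 2-week KO males left out and 4 with males only. With 1 library left out they were 0 (without 4-week WT f) to 16 (without 2-week WT m2); leaving out the 4-week libraries WT f3, m1, m2 or m3 or KO f2, m1 or m2, or the 2-week libraries WT m3 or KO m2, gave 1 to 4. At 4 weeks the count of 0 became 3 with voom and quality weights and 0 to 1 with 1 library left out (1 without KO m2). With the replicate block the difference was called for 0 genes (155 unadjusted), and with the block for the 4-week males for 0 (177 unadjusted). Both blocks removed all 7 calls at 2 weeks, and neither led to a call at 4 weeks.

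The difference for Eng, 0.17, was -0.15 with voom, -0.18 with voom and a variance for each time, -0.41 with the replicate block, -0.14 with the block for the 4-week males, -0.088 with males only and -0.51 to 0.46 with 1 library left out. That for Notch1, -0.68, was 0.016 without both KO males of the 2-week set and -1.08 to 0.11 with 1 library left out. That for mt-Cytb, 0.18, was -0.035 with males only. Other list members kept their direction but changed in size with 1 library left out. Bmpr2, -1.10, was -1.56 to -0.63, and Dll4, -0.46, was -0.95 to -0.12. Col15a1, 1.195, was 0.63 to 1.74, and Nfkbia, 0.27, was 0.12 to 0.46. The voom fit with a variance for each time, the t distribution for separate fits, the block for the 4-week males and the recounts of calls at each time were chosen after seeing the data.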

Other observations

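Vps4a, Pdf and Nfat5, 3 of the 4 genes with the smallest p for the difference, lie on 1 stretch of chromosome 8, from 107031222 to 107379517 (348296 bases, GRCm38). This was noticed after their values were seen and was not tested. The stretch was drawn between these genes, so their count within it was fixed, and 3.91% of all genes tested had an unadjusted p under 0.05. Of 12 annotated genes that lie wholly within it, 7 were tested. Vps4a and Pdf had differences of 1.70 and 1.66, and Nfat5, which starts 247714 bases beyond the end of Vps4a, had -2.58. The 4 genes between them had Cog8 -0.70 (SE 1.17), Nip7 0.53 (SE 0.618), Cyb5b -0.42 (SE 0.603) and Rps18-ps3 -0.32 (SE 0.315). At 2 weeks the KO effect was -1.55 for Vps4a, -1.55 for Pdf, 2.43 for Nfat5, 0.99 (SE 0.849) for Cog8 and -0.28 (SE 0.448) for Nip7.

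The genes called change with the treatment of the 2 libraries highest in neutrophil and macrophage markers. Without the 2-week KO males m2 and m3 the difference was called for Atxn2, Kansl3, Ncor1, Pelp1, Pes1, Pgp, Rcn2, Rell1, Thoc1 and Ufl1, 9 positive and 1 negative, and Vps4a ranked 25 by p. Of the 195 genes with an unadjusted p under 0.05 in the report, 124 (63.6%) had one there too, which is 29.6% of the 419 found there. That setting leaves 2 females to stand for KO at 2 weeks, so sex and genotype overlap more, and their spread is assumed to be that of the other groups.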
